A study of Mus musculus with 12 samples.

Results

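B16 cells are an established mouse melanoma line that makes melanin in culture. The comparison described here sets the latest harvest of the pigmented phase of a culture cycle, day 12, against its earlier harvests, days 4 and 8. Arrays were chosen by their day label alone, which gave 2 arrays of day 12 and 4 arrays of days 4 and 8, so 6 of the 12 Illumina mouse bead arrays of the series. Every day had 1 array of set 1 and 1 of set 2, which the series describes as 2 consecutive cycles. All 6 arrays were labelled pigmented. Per the labels' protocols, the cells of these days were plated at 100 cells per cm2 in DMEM with 10% fetal calf serum. On day 12 they were plated anew, at 10000 cells per cm2, and this gave days 16 and 20. Days 0, 16 and 20 were labelled depigmented, and no group carried a further treatment or an altered allele. A separate density label of each array read 100 for both day 4 arrays, 10000 for both day 8 arrays, 10000 for day 12 of set 1 and 100 for day 12 of set 2, and so did not follow that plating protocol. B16 is 1 tumour line, and time since plating, cell crowding and the use of the medium advanced together, so they cannot be told apart here. Apart from calling the sets cycles, the labels do not tell whether same-day arrays hold RNA of different cultures, and the p-values therefore reflect array-to-array spread that may be only technical.

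Melanin is made in melanosomes, organelles related to lysosomes, by tyrosinase and the enzymes encoded by Tyrp1 and Dct, on a fibril scaffold of PMEL protein. The transcription factor MITF, with SOX10 and PAX3 acting before it, switches on most of these genes, and cyclic AMP from the melanocortin receptor MC1R raises its level. Cells that grow sparsely divide fast and need new ribosomes, sterols and folding capacity, while crowded cultures are known to slow their division and to use up oxygen and nutrients.

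Days 4 and 8 were alike, and day 12 stood apart from both. Values are log2 of normalized intensity, with day 12 minus the mean of days 4 and 8 given with its standard error (SE) from limma, and 1 unit on this scale is a 2-fold difference. A gene was called at a Benjamini-Hochberg adjusted p under 0.05 over 11470 genes tested. Between day 8 and day 4, 0 genes were called by limma (307 genes, 2.68%, at an unadjusted p under 0.05), and 3 were called with the authors' value table in place of the signal table. The SD over genes of the log2 difference between 2 arrays was 0.197 and 0.209 within an early day and 0.185 to 0.196 between day 4 and day 8. It was 0.639 to 0.653 between a day 12 array and an early array, and 0.22 between both day 12 arrays. Day 12 against days 4 and 8 gave 6612 called genes (57.6%), 3370 higher (29.4%) and 3242 lower (28.3%). At least a 2-fold difference was found for 1153 of them (10.1%), 657 higher (5.73%) and 496 lower (4.32%). Higher genes made up 51% of the calls, and 39.5% (2232 higher, 3424 lower) when arrays were centred on their medians in place of quantile normalization. With the authors' value table the share was 59.7% (3699 higher, 2499 lower). The day 12 arrays lay beyond all 4 early arrays for 7433 genes (64.8%), 32.8% above and 32% below. Against day 4 alone 6099 genes were called (53.2%) and against day 8 alone 6127 (53.4%), and 5563 genes were called in all these comparisons in the same direction. Day 4 and day 8 each share the day 12 arrays in these comparisons, so they do not check each other. Differences between set 1 and set 2 in the day 12 effect passed the threshold for 0 genes in limma's interaction test (710 genes, 6.19%, at an unadjusted p under 0.05). With the set numbers of the value table, which differ for 4 of the 6 arrays, 1 gene passed and 1503 had an unadjusted p under 0.05.

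The melanocyte label was checked against marker genes. Of 10 melanocyte lineage markers, 9 were detected on all 6 arrays, and Ednrb on none. Their summed linear level was 83600 to 87500 on the early arrays and 56900 to 58300 on day 12. Summed levels of the other cell types were close to the array's floor. Leukocyte markers summed to 207 to 222 early and 169 to 175 on day 12, with Ptprc, Cd3e, Itgam and Adgre1 detected on no array. The others measured, Lyz2 (0.53 ± 0.14) and Fcer1g (-1.45 ± 0.14), were detected on all 6 and moved in opposite directions, though another detected Lyz2 probe gave 0.06 and was not called. Fibroblast markers summed to 154 to 163 early and 188 to 198 on day 12, with Col1a1, Col1a2, Col3a1, Dcn and Lum undetected and Pdgfra at least 1.51-fold higher on day 12. Pdgfrb, detected on 1 early array and both day 12 arrays, was called higher as well (0.45), a call lost against day 8 alone (0.37). The keratinocyte markers Krt5, Krt14 and Krt10 were undetected, and Krt1 was detected on 3 early arrays and on no day 12 array (-0.45 ± 0.16). The endothelial markers Cdh5 and Kdr were undetected, Pecam1 was detected on 1 day 12 array, and Vwf on the 4 early arrays and on no day 12 array. The change of Vwf (-0.38) was not called, but was called with the 6 arrays alone or with the replicate block. Between 18508 and 19775 probes were detected per array.

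The largest rise was that of Timp3, an inhibitor of matrix metalloproteases. Its level was 7.24 and 7.36 on day 4, 7.20 and 7.25 on day 8, and 11.60 and 11.77 on day 12 (set 1, then set 2, here and below). That is a rise of 4.42 ± 0.09 (SE; adjusted p = 9.32e-20), while a second probe gave 2.87 and another, detected on day 12 alone, 0.35. Txnip, which binds thioredoxin and curbs glucose uptake, was at 8.20 and 8.01 on day 4, 8.12 and 8.13 on day 8, and 12.42 and 12.45 on day 12. It rose by 4.32 ± 0.06, and its day 12 arrays lay above all early arrays, as for 32.8% of all genes tested. The zinc finger gene Zbtb2 rose by 3.83 ± 0.06, the R-spondin receptor gene Lgr6 by 3.73 ± 0.12, and Shisa2 by 3.61 ± 0.07. Dbp, a clock-controlled transcription factor, rose by 3.52 ± 0.06, and Rras, a small GTPase, by 3.39 ± 0.08. Wfdc1 (3.32), the myosin light chain gene Myl9 (3.26), Lrrfip1 (3.18), the cytochrome gene Cyp2d22 (3.15) and Rgs16 (3.01), a brake on G protein signalling, completed the 12 largest rises among genes detected on all 6 arrays.

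Id2, an inhibitor of helix-loop-helix transcription factors, fell most. It lay at 11.83 and 11.80 on day 4, 11.86 and 11.74 on day 8, and 8.13 and 7.99 on day 12. The change was -3.75 ± 0.07 (adjusted p = 9.32e-20), and 2 further probes gave -1.72 and -1.70, so the direction was common to the probes and the size was not. The noncoding gene Lncbate10 changed by -3.71 ± 0.12, the melanosomal receptor gene Gpr143 by -3.20 ± 0.10 and the imprinted gene Mest by -3.00 ± 0.13. Cck, the gene of the peptide hormone cholecystokinin, changed by -2.88 ± 0.12. Mitf (-2.78 ± 0.10) and Sox9 (-2.71 ± 0.07), both transcription factors of the melanocyte lineage, were among the 12 largest falls. The others were the lysosomal peptidase gene Dpp7 (-2.72), the DNA repair gene Brca1 (-2.60, with -1.03 from a second probe), the chaperone gene Hsph1 (-2.58), the monoglyceride lipase gene Mgll (-2.51) and Eps8 (-2.50), an actin regulator.

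**Figure D1:**
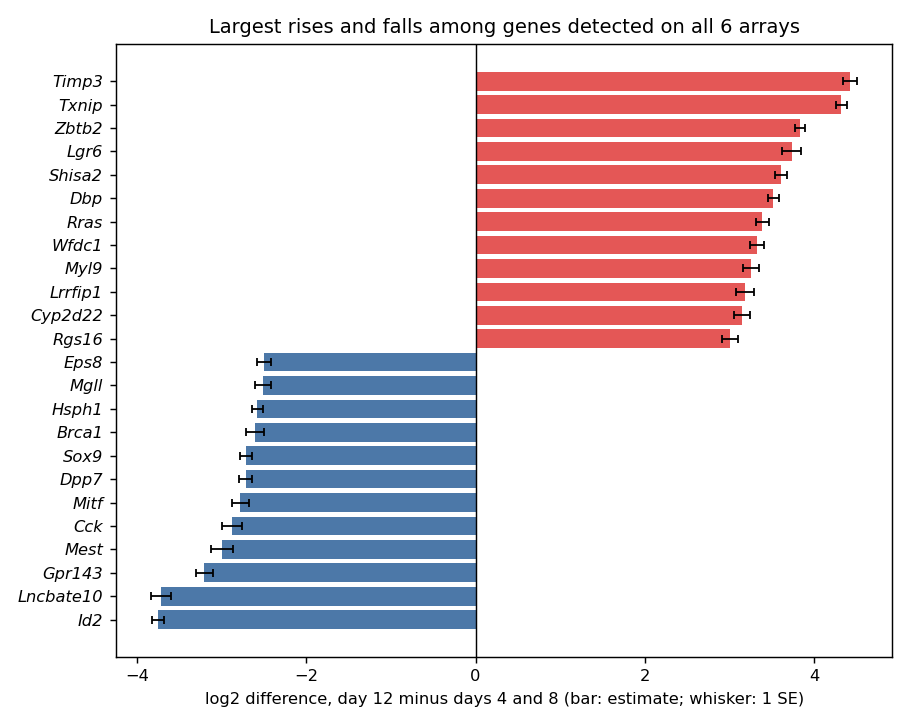
Horizontal bars give the log2 difference of day 12 (2 arrays) minus days 4 and 8 (4 arrays) for the 12 largest rises (red) and 12 largest falls (blue) among called genes detected on all 6 arrays, with whiskers of 1 SE. Rises run from 3.01 for Rgs16 to 4.42 for Timp3, and falls from -2.50 for Eps8 to -3.75 for Id2.

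Genes detected on every array of one side and on none of the other have only a bound. Among called genes there were 194 such rises and 72 such falls. The largest bounds upward were those of Hrc (at least 6.10-fold), Best1 (at least 5.46-fold), Rab7b (at least 5.14-fold), Psd2 (at least 4.38-fold) and Prr33 (at least 4.36-fold). Downward they were those of Gm14461 (at least 6.05-fold), Ica1l (at least 3.61-fold), Abca12 (at least 3.36-fold), the clock repressor gene Bhlhe41 (at least 3.34-fold) and the basement membrane collagen gene Col4a4 (at least 2.99-fold). A bound sets the mean of the detected group against the lowest detected normalized level, or the probe's own value where that was higher.

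Pigment and melanocyte genes were mostly lower on day 12, although these cells were labelled pigmented. Of 25 measured genes 19 fell and 2 rose (background 28.3% and 29.4%), with a median of -0.47 against -0.0054 over all genes tested. Leaving out 1 array at a time left 15 to 19 lower, the lowest count without day 12 of set 1. A bulk array cannot tell fewer cells of a type from less RNA per cell. Mitf, the central regulator, was at 9.73 and 9.75 on day 4, 9.94 and 9.78 on day 8, and 7.22 and 6.83 on day 12. Its day 12 arrays lay below every early array, as for 32% of all genes tested. A second Mitf probe was detected on none of the 6 arrays. Sox10 was at 12.18 to 12.26 on the early arrays and 12.02 and 12.11 on day 12, a change of -0.15 ± 0.06 (adjusted p = 0.0346). That call was lost without day 12 of set 1 (adjusted p = 0.262), day 4 of set 1 (0.0719) or day 8 of set 2 (0.0804). Pax3 changed by -0.55 ± 0.13, and by -0.36 against day 4 alone (adjusted p = 0.0539). Tfap2a changed by -0.47 ± 0.06, with 0.65 from a dim probe detected on 2 of 4 early arrays. Estimates for the transcription factors of the lineage thus ran from -0.15 to -2.78.

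Among the melanin enzymes, Tyr fell and the others gave readings that depended on the probe. Tyr, the rate-limiting enzyme, was at 9.77 and 9.84 on day 4, 9.90 and 9.89 on day 8, and 8.74 and 8.63 on day 12, a change of -1.16 ± 0.10 (adjusted p = 1.35e-09). Tyrp1 did not pass the test on its brightest probe (-0.10 ± 0.07, adjusted p = 0.255), while its other probes gave -0.57 and -0.61. Dct was 0.23 ± 0.07 higher on one probe and -0.32 ± 0.07 on the other, both called, at levels of 14.2 to 14.6 near the top of the scale, and so its direction is not settled, although it is among the 2 counted as higher. Atp7a, the copper pump that loads tyrosinase, differed by -0.06 ± 0.07 and was not called.

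Genes of melanosome structure and of transport across its membrane were lower. Pmel, the scaffold, was at 13.64 to 13.80 on the early arrays and at 12.34 and 12.49 on day 12 (-1.33 ± 0.06; second probe -1.54). Mlana, which helps PMEL to mature, was at 13.83 to 14.05 and then 12.16 and 12.36 (-1.68 ± 0.07). Gpr143, whose product controls melanosome size and number, was at 10.60 to 10.83 and then 7.63 and 7.48. In each of these 3 genes every day 12 array lay below every early array, as in 32% of all genes tested. Slc45a2, a transporter needed for melanosome pH, changed by -1.19 ± 0.06, with -2.30, -2.14 and -1.04 from its other probes. Oca2, a melanosomal chloride channel, changed by -1.72 ± 0.14 and Slc24a5, a cation exchanger, by -1.13 ± 0.14, each detected on 1 of 2 day 12 arrays. The channel gene Trpm1 changed by -0.42 ± 0.07 on its brightest probe and by -1.66, 0.20 and 0.02 on dimmer ones, of which the last pair was not called.

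Receptors and other lineage genes split. Met, the receptor for hepatocyte growth factor, was at 8.42 to 8.54 on the early arrays and 6.55 and 6.61 on day 12 (-1.88 ± 0.12). Mc1r was at 9.45 to 9.54 early and at 8.83 and 9.30 on day 12 (-0.41 ± 0.10), so its day 12 arrays were farther apart than its early arrays, and without day 12 of set 1 the change was -0.18 and not called (adjusted p = 0.145). Kit, the receptor for stem cell factor, differed by 0.02 ± 0.11 and was not called. Ptgds, a prostaglandin D synthase, changed by -1.16 ± 0.11, Rab38 by -0.25 ± 0.07, Snai2 by -0.25 ± 0.08 and Cited1 by -0.25 ± 0.10. The call of Rab38 was lost without day 12 of set 1 (-0.19), that of Snai2 without day 12 of set 2 (-0.21), and that of Cited1 without either, without day 4 of set 1 or without either day 8 array (-0.20 to -0.25). Gpnmb, a melanosomal glycoprotein gene, was not called on its brightest probe (-0.11 ± 0.06), at a level near 14, while its other probes gave -1.57, -1.39 and -1.21. S100b, a calcium-binding protein used as a melanoma marker, rose by 0.80 ± 0.13.

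**Figure D2:**
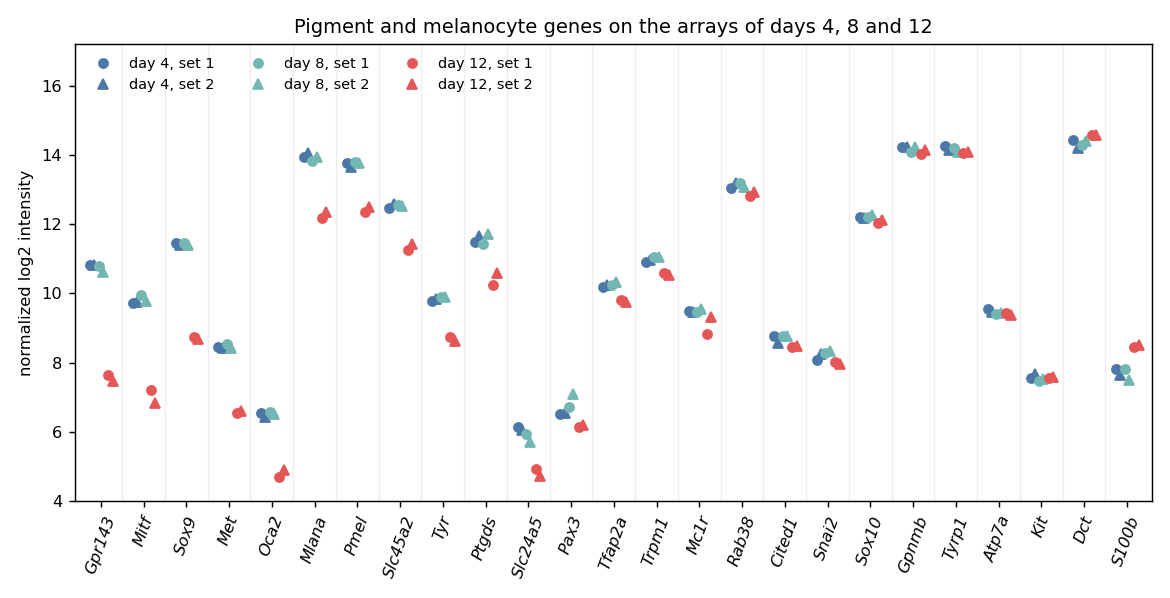
Points give the normalized log2 intensity of the 25 measured pigment and melanocyte genes on the 6 arrays (circles set 1, triangles set 2, colours by day), ordered by the difference of day 12 from days 4 and 8. From Gpr143 to Sox10 the 2 day 12 points lie below the 4 early points, as for 32% of all genes tested. On the probes shown the day 12 points overlap with the early points for Gpnmb, Tyrp1, Atp7a and Kit.

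MITF binds a short element, and the promoter of Tyr is shown because this gene fell with Mitf. The sequence is from RefSeq on GRCm38.p6, chr7:87493463-87493762, minus strand, from 250 bases before to 50 after the gene's start, with the M-box core TCATGTG in capitals.
Tyr: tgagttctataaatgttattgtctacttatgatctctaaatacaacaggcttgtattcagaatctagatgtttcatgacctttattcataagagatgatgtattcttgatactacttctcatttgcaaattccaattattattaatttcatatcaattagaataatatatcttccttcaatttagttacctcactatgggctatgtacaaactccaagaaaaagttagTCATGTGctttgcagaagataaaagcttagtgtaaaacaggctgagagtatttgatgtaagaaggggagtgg
This motif, searched on both strands, was in 3.77% of 32851 mouse promoters of this length. It was in 6 of the 16 pigment genes with a promoter in the table, of which 4 (Mc1r, Slc24a5, Trpm1 and Tyr) fell. Dct was called higher on the probe used and lower on its other probe, and Tyrp1 was not called on the probe used. Of all 25 measured pigment genes 19 fell, so the direction of these 4 says little about the motif. A part of MITF in these values was not tested.

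Genes that build and move melanosomes were lower in part. Of 32 measured genes 16 were lower and 4 higher (median -0.24), against 28.3% lower and 29.4% higher over all genes tested. Rab32, a GTPase that directs enzymes to melanosomes, was at 11.10 to 11.16 on the early arrays and 9.44 and 9.17 on day 12 (-1.82 ± 0.09). The sorting gene Vps33a (-1.41 ± 0.08), the protease gene Bace2 (-1.29 ± 0.08, with -2.76 and -2.26 from dimmer probes), which cuts PMEL, and the adaptor subunit Ap3d1 (-1.03 ± 0.09) also fell. Cln3 changed by -1.60 ± 0.15, detected on 1 of 2 day 12 arrays. The transport tripod of Rab27a (-0.97), Mlph (-0.69) and Myo5a (-0.67), which holds melanosomes at the cell edge, fell as well. Exoc4 (0.96), Bloc1s6 (0.62), Bloc1s5 (0.39) and Snx6 (0.23) rose. Bloc1s3 (-0.44) and Bloc1s4 (-0.23) fell, and Bloc1s1 (0.10) and Bloc1s2 (0.13) were not called. The subunit gene Hps3 fell (-0.86), while Hps1 (0.16), Hps4 (-0.10), Hps5 (0.05) and Hps6 (-0.05) were not called.

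Beyond pigment, groups of growth genes were lower and groups tied to oxygen, nutrients and antigen display were higher. Counts of members higher or lower are counts of called genes, and are read against the background of 29.4% of all genes higher and 28.3% lower. The lists were chosen with earlier results of these data known, so their directions are a description. The medians of some lists moved by more than 1.5 times over the settings tried, with no change of sign in those named here. They ranged from -0.71 to -0.40 for pigment genes, -0.42 to -0.16 for melanosome transport, -0.22 to -0.01 for mitosis, -0.54 to -0.27 for tRNA synthetases and -0.56 to -0.20 for the proteasome. Heat shock ranged from -0.58 to -0.24, cyclic AMP genes from -0.40 to -0.19, p53 targets from 0.49 to 0.77 and nutrient genes from 0.12 to 0.59. Interferon genes ranged from 0.05 to 0.29 and matrix genes from 0.06 to 0.52.

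**Figure D3:**
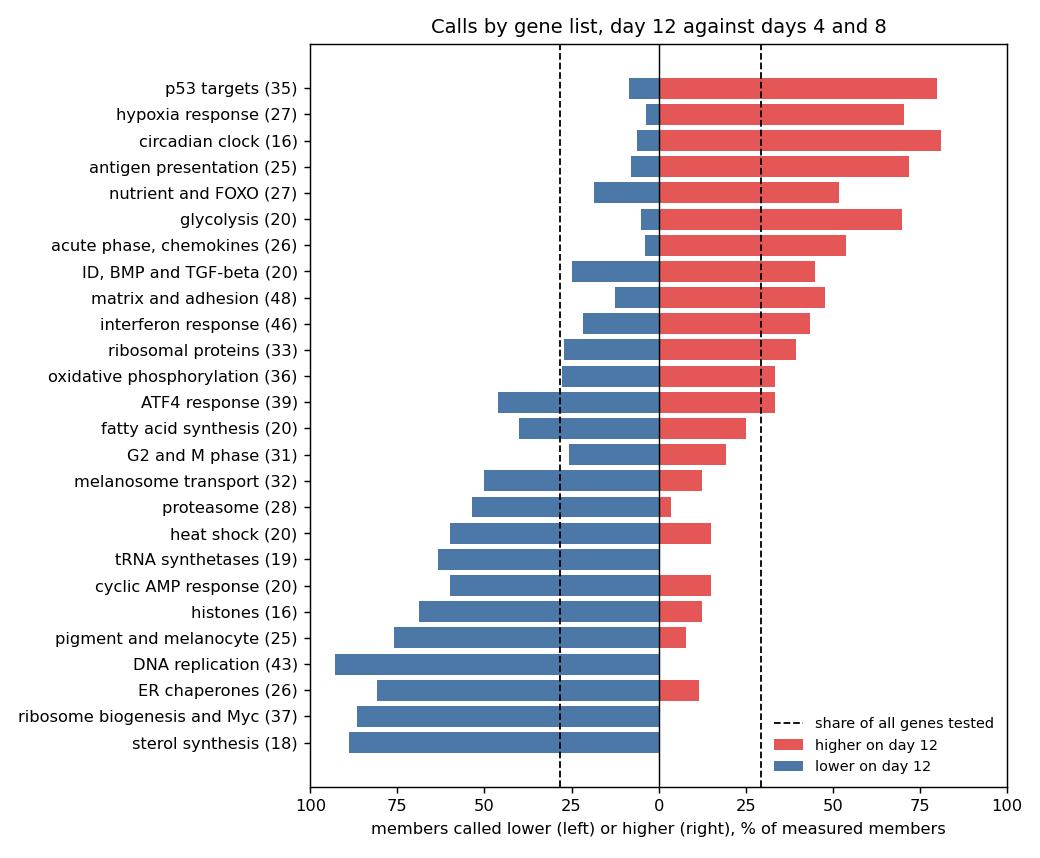
Bars give, for each list drawn, the share of its measured members (number in brackets) called lower (blue, left) or higher (red, right) on day 12. Dashed lines give the shares over all genes tested, 28.3% lower and 29.4% higher. Lists of cyclins, oxidative defence, fatty acid oxidation, lysosome, immediate early, WNT and NOTCH, and YAP genes are not drawn. DNA replication has 93.0% of its members lower, and sterol synthesis 88.9%, while p53 targets have 80.0% and circadian clock genes 81.2% higher.

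Genes that copy DNA were lower almost throughout. Of 43 measured replication genes 40 were lower and 0 higher (median -0.73). Fen1, the nuclease that trims Okazaki fragments, was at 11.24 to 11.36 on the early arrays and 9.69 and 9.62 on day 12 (-1.62 ± 0.09). Gins1, a subunit of the replicative helicase, changed by -1.66 ± 0.10, and Cdc6, which loads that helicase, by -1.53 ± 0.10. Enzymes that supply thymidine nucleotides fell alongside: Dut (-1.56 ± 0.11), Tyms (-1.48 ± 0.07) and Tk1 (-1.30 ± 0.08). All helicase genes Mcm2 to Mcm7 fell, from -0.53 for Mcm6 to -0.94 for Mcm5, and Pcna, the sliding clamp, changed by -0.73. Gins3 (-0.17), Rfc1 (-0.09) and Gins2 (-0.04) were the members not called.

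Several cyclins and kinases of G1 and S phase fell while some inhibitors rose, and Cdk6 (-0.23) and Ccnd2 (0.05) were not called. Cdk2 was at 13.46 to 13.68 on the early arrays and 11.84 and 11.91 on day 12 (-1.67 ± 0.07). Ccne2 (-1.73 ± 0.11), Ccnd1 (-1.35 ± 0.07), Ccne1 (-1.15 ± 0.13) and Cdk4 (-1.04) also fell. The inhibitors Cdkn1a (0.60), Cdkn1b (0.44) and Cdkn2d (0.45) rose, and Cdkn1c was detected on both day 12 arrays and on no early array, at least 2.78-fold higher. The retinoblastoma gene Rb1 rose by 1.13 and Ccng2, a cyclin of non-dividing cells, by 1.75 ± 0.09. Over the 24 genes of this list 10 fell and 8 rose.

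Genes of mitosis did not move as one. Of 31 measured genes 8 fell and 6 rose, and 17 were not called, among them the mitotic kinase genes Cdk1 (-0.10), Plk1 (-0.17) and Aurka (0.09). Kif11, a spindle motor, changed by -0.78 ± 0.09 and Birc5 by -0.59 ± 0.08, while Nusap1 (0.75 ± 0.07), Aspm (0.67 ± 0.09) and Kif23 (0.58 ± 0.06) rose. Kif23 was 0.25 and not called with median centring, and its other probes gave 0.28 (called), 0.06 and 0.04 (not called). The list's median was -0.14. The regulators E2f1 (-0.40 ± 0.07) and Foxm1 (-0.55 ± 0.08) fell. Of 16 measured histone genes 11 fell and 2 rose, with H2az1 at -0.91 ± 0.06. Histone probes of near-identical copies may share transcripts.

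An E2F element is shown in Orc1, a subunit of the origin recognition complex that fell by 1.29 on the log2 scale, since E2F factors drive S phase genes. The promoter is from RefSeq on GRCm38.p6, chr4:108579204-108579503, plus strand, and the capitals mark TTTCGCGC, here on the opposite strand and so printed as its reverse complement.
Orc1: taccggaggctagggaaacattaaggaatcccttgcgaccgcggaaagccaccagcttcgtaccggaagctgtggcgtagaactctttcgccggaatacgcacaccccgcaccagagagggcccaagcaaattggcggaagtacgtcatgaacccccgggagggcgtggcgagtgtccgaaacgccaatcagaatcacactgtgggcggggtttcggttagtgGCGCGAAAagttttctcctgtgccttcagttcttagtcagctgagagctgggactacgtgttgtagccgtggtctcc
This motif, searched on both strands, was in 0.323% of the promoters and in 7 of the 36 replication genes with a promoter in the table. All of these fell, but so did 40 of the 43 measured replication genes, so their direction says little about the motif. A part of E2F factors in these values was not tested.

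Ribosome building was lower as well. Of 37 measured genes of ribosome biogenesis and MYC 32 fell and 0 rose, with a median of -0.83. Nop56, a core protein of the nucleolar methylation complex, was at 10.11 to 10.19 on the early arrays and 8.49 and 8.46 on day 12 (-1.67 ± 0.08). Ncl, the nucleolar protein nucleolin, changed by -1.60 ± 0.09, Polr1b, a subunit of RNA polymerase I, by -1.46 ± 0.12 and Pes1 by -1.35 ± 0.10. Myc changed by -0.70 ± 0.14, detected on 1 of 2 day 12 arrays, and its partner Max by -1.40 ± 0.13. Ribosomal protein genes gave no such pattern, since 13 rose and 9 fell of 33, from -0.87 for Rplp0 to 1.55 for Rpl22, and their median ranged from -0.16 to 0.12 over the settings tried.

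Protein synthesis and turnover followed in smaller steps. Of 19 cytosolic tRNA synthetase genes 12 were lower and 0 higher (median -0.30), with the largest fall in Nars (-0.72 ± 0.07). Of 28 constitutive proteasome genes 15 fell and 1 rose (Psmd8, 0.38), with a median of -0.24. The ATPase subunit genes Psmc3 (-0.87 ± 0.08), Psmc5 (-0.85 ± 0.07) and Psmc4 (-0.70 ± 0.06) fell.

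Chaperones of the endoplasmic reticulum (ER) fell together. Of 26 measured genes 21 were lower and 3 higher (median -0.78). Calr, the calcium-binding chaperone calreticulin, was at 11.09 and 10.88 on day 4, 10.89 and 10.94 on day 8, and 8.45 and 8.82 on day 12 (-2.31 ± 0.10, adjusted p = 2.24e-14). Sdf2l1 (-2.22 ± 0.10), Creld2 (-1.79 ± 0.07), the BiP cochaperone gene Dnajc3 (-1.73 ± 0.08) and the disulfide isomerase gene Pdia6 (-1.62 ± 0.08) followed. Hspa5, which encodes BiP, was at 9.63 to 9.95 on the early arrays and 8.68 and 8.13 on day 12 (-1.40 ± 0.11). Ern1 (1.09), a stress sensor gene, Sel1l (0.55), part of the degradation machinery, and Atf6 (0.41, detected on 1 of 4 early arrays and overlapping between the groups) were called higher.

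The ER stress response element is the binding site of ATF6 with NF-Y, and promoters of 5 of the 6 largest falls carry it. They are printed from RefSeq on GRCm38.p6, from 250 bases before to 50 after each start, in the direction of the gene. Positions are chr8:84846882-84847181 (minus strand) for Calr, chr15:88819396-88819695 for Creld2, chr12:17266339-17266638 for Pdia6, chr2:34771840-34772139 for Hspa5 and chr14:118937682-118937981 for Dnajc3 (all plus strand). Capitals mark the 19 bases of the match, which is CCAAT and CCACG with 9 bases of any kind between them. They lie on the opposite strand in Calr and Creld2 and are there printed as the reverse complement.
Calr: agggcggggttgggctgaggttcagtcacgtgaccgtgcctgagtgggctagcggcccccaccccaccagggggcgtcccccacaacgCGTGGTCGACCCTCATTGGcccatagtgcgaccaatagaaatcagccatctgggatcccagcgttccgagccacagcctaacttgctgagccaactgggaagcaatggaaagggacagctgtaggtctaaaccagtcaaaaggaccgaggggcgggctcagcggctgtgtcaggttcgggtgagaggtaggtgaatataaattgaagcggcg
Creld2: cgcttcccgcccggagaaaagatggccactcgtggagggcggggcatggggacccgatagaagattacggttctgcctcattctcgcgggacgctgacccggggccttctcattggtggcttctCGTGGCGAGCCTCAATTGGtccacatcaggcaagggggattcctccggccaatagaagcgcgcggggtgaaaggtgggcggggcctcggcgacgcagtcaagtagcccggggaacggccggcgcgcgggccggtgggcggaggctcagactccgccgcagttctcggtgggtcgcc
Pdia6: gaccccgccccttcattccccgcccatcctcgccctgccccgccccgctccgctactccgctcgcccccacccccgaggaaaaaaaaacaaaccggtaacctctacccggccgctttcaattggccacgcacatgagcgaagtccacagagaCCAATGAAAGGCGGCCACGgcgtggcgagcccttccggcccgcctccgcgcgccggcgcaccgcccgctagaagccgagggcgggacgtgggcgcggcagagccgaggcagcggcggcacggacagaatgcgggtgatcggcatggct
Hspa5: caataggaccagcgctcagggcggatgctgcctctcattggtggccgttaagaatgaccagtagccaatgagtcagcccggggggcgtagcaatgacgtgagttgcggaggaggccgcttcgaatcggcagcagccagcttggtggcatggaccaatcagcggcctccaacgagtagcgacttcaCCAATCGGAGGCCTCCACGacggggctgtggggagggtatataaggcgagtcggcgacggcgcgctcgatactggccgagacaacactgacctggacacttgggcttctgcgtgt
Dnajc3: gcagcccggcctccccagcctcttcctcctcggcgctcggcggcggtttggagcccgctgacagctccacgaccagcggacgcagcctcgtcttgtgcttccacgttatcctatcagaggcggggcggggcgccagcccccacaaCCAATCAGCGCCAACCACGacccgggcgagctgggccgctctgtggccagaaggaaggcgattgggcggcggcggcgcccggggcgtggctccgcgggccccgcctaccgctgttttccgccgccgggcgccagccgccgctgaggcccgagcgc
The element was in 39 of 32851 promoters (0.119%), searched on both strands. It was in 8 of the 23 ER genes with a promoter in the table, of which 7 (these 5, Hsp90b1 and Syvn1) fell and Ero1b was not called. The match is a description of these letters in this window, and of all 26 measured ER genes 21 fell.

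Cytosolic heat shock genes fell in part. Of 20 measured genes 12 were lower and 3 higher (median -0.27). Hsph1, a large nucleotide exchange factor of HSP70, was at 10.99 to 11.19 on the early arrays and 8.59 and 8.46 on day 12 (-2.58 ± 0.07). Dnajb1 changed by -1.47 ± 0.06, Hspa1b by -1.42 ± 0.16, and the HSP90 activator gene Ahsa1 by -1.10 ± 0.09. Hspa1b has a near-identical copy, Hspa1a, so its probe may read both, and a dim second probe gave 0.08. Hspa4 (0.63) and Dnajb4 (0.71) rose. Hspa4l (0.89 ± 0.14, detected on 3 of 4 early arrays) was -0.16 with median centring and -0.21 on the probe detected on all 6 arrays, so its direction is not settled. A heat shock element was taken as GAA, TTC and GAA with 2 bases of any kind between neighbours on either strand. It was in 0.603% of promoters and in 4 of the 16 heat shock genes with one. These were Chordc1, Hspd1, Hspe1 and Hsph1, and all fell, in a list where 12 of 20 genes fell.

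Sterol synthesis had the lowest median of the lists described, -1.21. Of 18 measured genes 16 fell and 0 rose. Lss, which closes the ring of lanosterol, was at 8.97 and 8.80 on day 4, 8.69 and 8.88 on day 8, and 6.59 and 6.86 on day 12 (-2.11 ± 0.11). Fdps, which makes farnesyl diphosphate, was at 12.51 to 12.62 on the early arrays and 10.78 and 10.81 on day 12 (-1.78 ± 0.06). Nsdhl (-1.97 ± 0.11), Cyp51 (-1.95 ± 0.08), Mvd (-1.78 ± 0.11) and Msmo1 (-1.76 ± 0.06), enzymes before and after lanosterol, fell likewise. Mvk was detected on all early arrays and on no day 12 array. The regulator Srebf2, which switches these genes on, changed by -0.35 ± 0.09, and Insig1, which holds it back, by -0.21, while Pmvk (0.02) and Sc5d (-0.18) were not called. Some members of the list were not analysed here.

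Fatty acid synthesis was mixed, with 8 of 20 genes lower and 5 higher. Of its desaturase and elongase genes, Fads1 (-0.30) and 4 others fell, with Fads2 at -1.43 ± 0.12, Elovl1 at -1.42 ± 0.10, Elovl6 at -1.24 ± 0.09 and Scd1 at -1.19 ± 0.07. Scd2 (-0.12), Elovl5 (-0.13) and Fads3 (0.02, detected on none of the 6 arrays) were not called. Lpin1, a phosphatidate phosphatase, rose by 0.84 ± 0.11 and Acss2, which activates acetate, by 0.79 ± 0.08. Fasn was not called (-0.17) and was detected on 1 of 2 day 12 arrays.

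**Figure D4:**
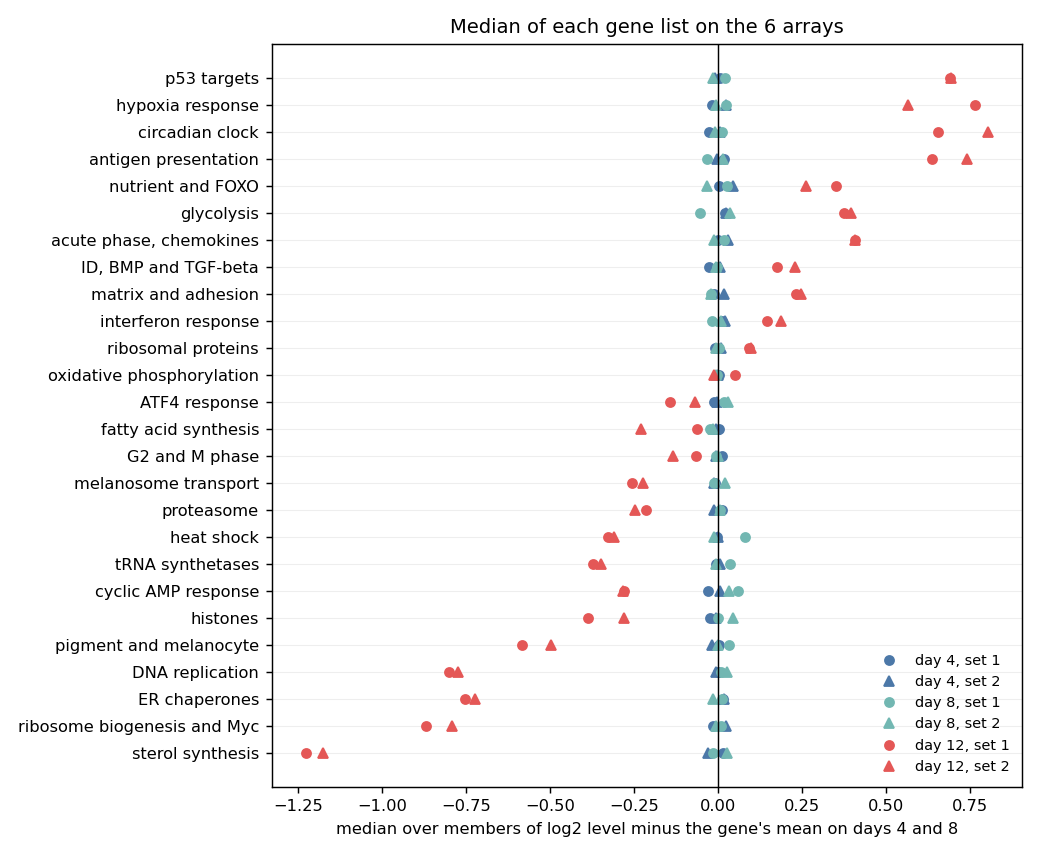
For each gene list, points give the median over its measured members of the log2 level on an array minus the gene's mean over days 4 and 8 (circles set 1, triangles set 2, colours by day). The medians of early arrays lie between -0.05 and 0.08. The day 12 medians are -1.23 and -1.18 for sterol synthesis and 0.69 and 0.69 for p53 targets, 0.76 and 0.57 for the hypoxia response, and of opposite sign, 0.05 and -0.01, for oxidative phosphorylation.

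Glycolysis and the hypoxia response rose. Of 20 measured glycolysis genes 14 rose and 1 fell (Slc2a3, -0.43), with a median of 0.38. Eno2, an enolase, was at 7.82 to 7.92 on the early arrays and 9.52 and 9.62 on day 12 (1.71 ± 0.07). The phosphofructokinase genes Pfkl (1.55 ± 0.07) and Pfkm (1.20 ± 0.07), the aldolase gene Aldoa (1.25 ± 0.08) and Pgk1 (0.67 ± 0.07) rose, whereas Gapdh (0.07), Pkm (-0.03) and Ldhb (0.10) were not called. Pdk1, which diverts pyruvate from mitochondria, rose by 1.53 ± 0.11.

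Of 27 measured hypoxia genes 19 rose and 1 fell, with a median of 0.74. Vegfa, the growth factor for vessels, was at 9.33 and 9.51 on day 4, 9.64 and 9.39 on day 8, and 10.94 and 10.97 on day 12 (1.49 ± 0.08, adjusted p = 8.32e-13). Egln3, an oxygen-sensing prolyl hydroxylase that HIF itself induces, was at 6.76 to 7.21 on the early arrays and 9.09 and 8.92 on day 12 (1.95 ± 0.09). Ankrd37 (1.88 ± 0.16, detected on 3 of 4 early arrays), Adm (1.46 ± 0.15), P4ha1 (1.46 ± 0.08) and Car9 (0.96), a carbonic anhydrase of hypoxic tumours, rose as well. The transcript of the oxygen-regulated factor itself, Hif1a, was not called (-0.06 ± 0.10), nor was Egln1 (-0.04). Oxidative phosphorylation, with 12 of 36 genes higher and 10 lower, and fatty acid oxidation, with 7 of 18 higher and 4 lower, were near the background. Among the latter Ppargc1a, a coactivator of mitochondrial genes and a target of MITF, changed by -1.23 ± 0.08.

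Genes known as p53 targets were higher. Of 35 measured genes 28 rose and 3 fell, with a median of 0.75. Dram1, an autophagy regulator, was at 4.99 to 5.45 on the early arrays and 7.48 and 7.36 on day 12 (2.13 ± 0.12). Fas, a death receptor, rose by 1.86 ± 0.13 (detected on 3 of 4 early arrays), Gadd45a by 1.38 ± 0.10 and the death gene Bbc3 by 1.15 ± 0.09 (0.10 and 0.09 on dim probes). DNA repair genes of the list rose together, with Ercc5 at 1.09 ± 0.07, Xpc at 1.04, Polk at 1.04 and Ddb2 at 0.96. Cdkn1a (0.60) and Mdm2 (0.56), the best known targets, rose. Sesn2 (-0.69), Plk3 (-0.31) and Ei24 (-0.18) fell. Several of these genes, among them Ccng2, Sesn1 and Gadd45a, are also targets of FOXO factors.

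Genes that respond to low nutrients or to FOXO factors rose in 14 of 27 cases and fell in 5, with a median of 0.40. After Txnip the largest rises were those of Gadd45b (2.48 ± 0.10), Ypel3 (2.10 ± 0.07), a gene tied to growth arrest, Ccng2 (1.75 ± 0.09) and Igf1r (1.53 ± 0.08). Dim second probes gave -0.19 for Ypel3 and 0.03 for Igf1r and were not called. Ypel3 was at 9.95 to 10.07 on the early arrays and 12.00 and 12.21 on day 12. Castor1, an arginine sensor that inhibits mTORC1, rose by 1.01 ± 0.09 and the insulin receptor gene Insr by 0.98. The ubiquitin ligase gene Trim63 (-0.92), Deptor (-0.64), Sesn3 (-0.51), Tob1 (-0.47) and Foxo3 (-0.36) fell.

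Genes of antigen presentation rose on day 12. Of 25 measured genes 18 rose and 2 fell, with a median of 0.63. H2-K1, a class I heavy chain, was at 7.79 and 7.86 on day 4, 7.79 and 7.66 on day 8, and 9.77 and 9.81 on day 12 (2.02 ± 0.09). H2-M3 (1.97 ± 0.09), H2-T23 (1.74 ± 0.08), H2-D1 (1.21), B2m (0.60), the class I light chain, and the peptide transporter subunits Tap1 (0.73) and Tap2 (0.63) rose too. Class I genes are close copies of each other, so their probes may share transcripts. The class II genes H2-DMa (2.02 ± 0.10) and H2-Ab1 rose, and H2-Ab1 was detected on both day 12 arrays and on no early array, at least 3.36-fold higher. H2-Aa (0.17) and H2-Eb1 (0.23), also class II genes, were detected on none of the 6 arrays and were not called. Immunoproteasome subunits diverged, since Psmb8 (1.83 ± 0.08) and Psmb9 (1.68) rose while Psmb10 (-1.55) fell. Of the leukocyte markers, Lyz2 was called higher on 1 of its probes and Fcer1g fell on the same day 12 arrays, with Ptprc detected on none, and their part in these values was not tested.

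Interferon-induced genes split. Of 46 measured genes 20 rose and 10 fell, with a median of 0.12. Dhx58, an RNA sensor of the RIG-I family, was at 6.24 to 6.45 on the early arrays and 8.02 and 8.12 on day 12 (1.71 ± 0.08). Irf1, a transcription factor for class I genes, rose by 1.08 ± 0.06. The antiviral genes Oas2 (-0.86 ± 0.10) and Oasl1 (-0.71) and the GTPase gene Gbp3 (-1.22 ± 0.09) fell. Isg20 rose by 1.32 ± 0.17, detected on 1 of 4 early arrays.

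Chemokine and acute phase genes were higher for 14 of 26 members and lower for 1, with a median of 0.35 (0.22 to 1.29 over the settings tried). Ccl5 was at 7.97 to 8.21 on the early arrays and 9.87 and 9.92 on day 12 (1.80 ± 0.08), and Cxcl1 rose by 1.37 ± 0.07. Tnfaip3 (2.14 ± 0.13, detected on 1 of 4 early arrays) and Nfkbia (1.37), which NF-kB induces to limit itself, rose with them. Nfkbiz (1.30), also induced by NF-kB, rose too. The ceruloplasmin gene Cp (1.88 ± 0.10), Tnfaip2 (1.53 ± 0.08) and Csf1 (1.43 ± 0.12) rose as well. Ccl2 fell (-0.54), with detection on 3 of 4 early arrays and on no day 12 array, and Il6, Hp, Cxcl9 and Ccl7 were detected on none of the 6.

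Matrix and adhesion genes were higher for 23 of 48 members and lower for 6, with a median of 0.19. Col4a1, a basement membrane collagen, was at 8.11 to 8.21 on the early arrays and 9.84 and 10.07 on day 12 (1.80 ± 0.08). Laminin and collagen genes Lama5 (2.00 ± 0.11) and Col5a1 (1.67 ± 0.07), the integrin genes Itgb5 (1.65 ± 0.09) and Itga5 (1.34) and the protease gene Mmp11 (2.11 ± 0.13, detected on 1 of 4 early arrays) rose. Inhibitors of metalloproteases differed, since Timp3 and Timp2 (0.81) rose while Timp1 (-0.29) fell. Nid1 (-1.60), Mmp2 (-0.80) and Cav1 (-0.73) fell.

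Targets of YAP and genes of dedifferentiated melanoma were divided, with 12 of 25 higher and 5 lower. Axl, a receptor kinase of melanoma cells low in MITF, was at 8.58 to 9.01 on the early arrays and 10.58 and 10.67 on day 12 (1.84 ± 0.07). Ccn1 (1.54 ± 0.07), Cnn2 (1.47 ± 0.14) and Tpm2 (1.63 ± 0.15, detected on 1 of 4 early arrays) rose. Ngfr, detected on both day 12 arrays and on no early array, was called higher by only 0.37 ± 0.13. Sox9 and Cd44 (-0.95) fell, Ccn2 changed by -0.38, and Yap1 itself was not called (-0.08 ± 0.08).

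Of 20 measured ID, BMP and TGF-beta genes 9 rose and 5 fell. The BMP target genes Id2, Id1 (-1.07 ± 0.12) and Id3 (-0.79 ± 0.14) fell, and Smad6, another such target, was not called (0.13). Tgfb3 was at 6.28 to 6.50 on the early arrays and 8.14 and 8.37 on day 12 (1.85 ± 0.10). The receptor gene Bmpr2 (0.81 ± 0.07) and Skil (0.82 ± 0.09), a brake on SMAD signalling, rose. The WNT target Axin2 fell by 1.17 on the log2 scale, and the receptor gene Notch3 rose by 1.79 ± 0.14. Of 19 WNT and NOTCH genes 13 were not called, Ctnnb1 (-0.04) and Hes1 (-0.20) among them.

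Clock genes were higher for 13 of 16 members and lower for 1, with a median of 0.72, or 0.57 with genes at their bound. Dbp was at 8.36 and 8.40 on day 4, 8.39 and 8.33 on day 8, and 11.88 and 11.90 on day 12. Rora (1.14 ± 0.09), Per1 (1.14 ± 0.08), Tef (1.09 ± 0.10), Per2 (1.07) and Arntl (0.57) rose, and Nr1d1, a clock repressor, was at least 1.80-fold higher. Bhlhe41 fell. The activator Arntl and its output Dbp rose in the same samples. The labels used here give no hour of harvest, and its part in these values was not tested. The E-box CACGTG was in 7.15% of promoters and in 4 of the 13 clock genes with one, of which 2 rose and 1 fell.

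Stress and signalling lists with mixed directions follow. Of 32 genes of oxidative defence 13 rose and 9 fell. Nqo1 (0.99 ± 0.11), the biliverdin reductase gene Blvrb (1.43 ± 0.06) and Nfe2l2 (0.89 ± 0.08), which encodes NRF2, rose. Gsta2 (-1.81 ± 0.07), Gsta1 (-1.41 ± 0.08) and Mt2 (-0.90 ± 0.14) fell, and the first pair are near-identical copies. Of 39 genes of the amino acid response 18 fell and 13 rose. The serine synthesis genes Phgdh (-1.18 ± 0.08) and Psat1 (-0.82) and the one-carbon gene Shmt2 (-1.32 ± 0.11) fell. The stress genes Ddit3 (0.87 ± 0.08) and Ddit4 (1.31 ± 0.07) rose, and Atf4 changed by -0.23 ± 0.07, a call lost without day 12 of set 2 (-0.16). Lysosome and autophagy genes were higher for 16 of 42 members and lower for 10, with Gabarapl1 (1.35 ± 0.07), Wipi1 (1.33 ± 0.08) and Naglu (1.38 ± 0.11) higher and the channel gene Mcoln1 (-1.40 ± 0.13) lower. Ctsa was 1.33 ± 0.10 on its brightest probe and -0.60 to -1.10 on its 4 others, so no direction is given. Tfeb and Tfe3, regulators of lysosome genes related to MITF, were not called.

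Immediate early and MAPK feedback genes were higher for 14 of 38 members and lower for 11. Egr1 was at 7.64 to 7.83 on the early arrays and 8.72 and 8.70 on day 12 (1.00 ± 0.07), and Ier3 rose by 1.05 ± 0.07. Fos was at 9.56 to 9.82 and then 8.72 and 8.62 (-1.02 ± 0.08). The feedback phosphatase genes Dusp4 (-0.63) and Dusp6 (-0.53) fell, and Etv5 was detected on all early arrays and on no day 12 array. Etv1 rose (0.29), and the feedback genes Dusp5 (0.20), Spry4 (0.25), Spred1 (0.08) and Spred2 (-0.40) were not called. Of 20 cyclic AMP genes 12 were lower and 3 higher (median -0.33). Crem, a cyclic AMP-responsive factor, was at 7.55 to 7.81 early and 5.78 and 6.09 on day 12 (-1.78 ± 0.13), while dim probes detected on some early arrays gave 0.36 and 0.58.

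Levels on the other days place the day 12 values within the cycle. Tyr was lower on day 12 (mean 8.69) than on days 4 and 8, and had a mean of 6.0 on day 0, 8.5 on day 16 and 5.7 on day 20. Mitf, by contrast, had a mean of 7.02 on day 12 and of 8.3 on day 0, so its day 12 level was below that of a depigmented day. Txnip was at a mean of 11.7 on days 0 and 16, below its day 12 mean of 12.4, and at 12.5 on day 20, and Timp3 at 10.5 on day 0 and 9.2 on day 16, below it. Id2 was at 11.6 on day 0, as high as on days 4 and 8, and at 7.2 on day 16. Lss had its lowest mean of the 6 days on day 12. These other days were not used in the comparison, except that all 12 arrays shared 1 estimate of the spread.

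**Figure D5:**
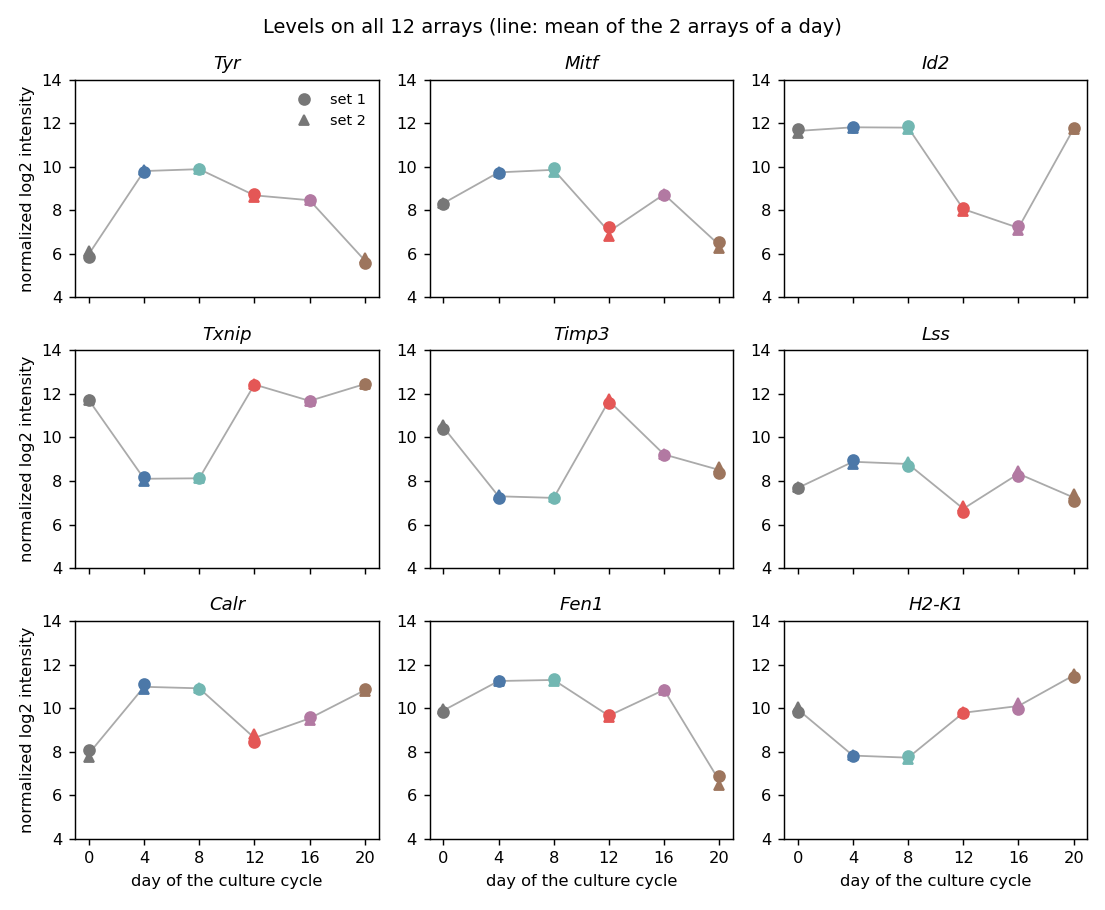
Normalized log2 intensity of 9 genes on all 12 arrays against the day of the culture cycle (circles set 1, triangles set 2, line through the mean of the 2 arrays of a day). Tyr, Lss, Calr and Fen1 are lower on day 12 than on days 4 and 8 and Txnip, Timp3 and H2-K1 higher, while Mitf and Id2 drop between day 8 and day 12 from levels above or at those of day 0.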

How the data were processed

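RNA of B16 cells was measured on Illumina bead arrays. Per the file headers, the authors deposited linear intensity and detection p-values of 45281 probes. The authors' value table held intensity values that were straight-line images of the signal columns (r = 1.000000) and served as an alternative. Software and array version are not given in the sources used here. The members and gene lists were chosen with earlier results of these data known.

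Background was corrected by normexp with an offset of 16, its parameters estimated through the detection p-values, which shrinks differences of dim probes, and arrays were quantile normalized (limma 3.58.1, R 4.3.3). Of the probes, 34885 had 1 gene symbol in the platform annotation, 18 several and 10378 none. A probe was kept if 2 or more arrays detected it at p under 0.05 (22978 probes, of which 19120 had 1 symbol), and each gene was read by its probe with the highest mean, which favours bright probes and left 11470 genes. Day was fitted as a factor over all 12 arrays (lmFit, eBayes with trend) and tested two-sided with Benjamini-Hochberg adjustment over all genes. This fit was tested on gene levels simulated from the normalized values. Background correction, normalization and probe choice were not part of that test. Among named called genes, 84 had 123 further probes detected on all 6 arrays, of which 105 were called in the same direction, 16 not called and 2, of Ctsa and Dct, in the opposite one.

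Genes were named as the 12 largest rises and falls detected on all 6 arrays, the 5 largest bounds each way, all pigment genes, up to 6 called members of each list and its regulators. Other members named beside them were chosen after their values were seen. With 2 arrays a day, the number of arrays limits the precision. Motifs were searched in RefSeq promoters of GRCm38.p6. Background shares are of promoters, while a list gene was counted if any of its promoters held the motif, so these units differ. Alternatives covered centring, background, filters, probe choice, arrays fitted, blocks, density label, the value table and each array left out.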

Additional observations from a re-analysis of the deposited data

Results flagged for a closer look

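Among 56 genes checked for an early array far from the other 3, 4 had such an array, and chance gives about 1 in 20. Zbtb2 was at 7.846 on day 4 of set 1 and at 7.724 to 7.739 on the others. Gpr143 was at 10.602 on day 8 of set 2 and at 10.791 to 10.829 elsewhere. Gpnmb was at 14.072 on day 8 of set 1, with 14.213 to 14.227 on the other 3. Cited1 was at 8.557 on day 4 of set 2 and at 8.760 to 8.771 on the rest. For Zbtb2 and Gpr143 the gap was far smaller than the difference from day 12.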

How the results depend on the processing

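Leaving out each of the 6 arrays in turn gave 5798 to 6405 called genes, 2974 to 3286 of them higher and 2791 to 3119 lower, 658 to 682 at least 2-fold higher and 492 to 524 at least 2-fold lower, and 0 to 0 between days 8 and 4. Where an arm then had 1 array, that array was assumed to vary like the other days. Genes higher numbered 2232 with median centring. Without background correction 350 were at least 2-fold higher and 262 at least 2-fold lower, and 1105 were at least 2-fold higher with the value table, which also called 3 between days 8 and 4. With the set as a replicate block 3467 genes were higher and 3335 lower. Set numbers differed between the deposited tables for 4 of the 6 arrays. Those of the value table gave 3330 and 3190 in the block, an alternative chosen after seeing the data, and 1 interaction gene, Stmn1. In limma's interaction test they gave 1503 genes at an unadjusted p under 0.05, against 710 with the signal table's numbers. Differences between sets correlated across genes at 0.02 (days 4 and 8), -0.03 (4 and 12) and 0.27 (8 and 12). The last was -0.27 with the value table's numbers. The numbers thus show no pairing with day 4, and which of them pair days 8 and 12 was not tested. Of 241 called named genes, 220 kept direction and call in every one of the 20 settings that held them. Reversed values were -0.0459 for Dct and -0.4605 for Ctsa with the mean of a gene's probes, and -0.1550 and -0.2111 for Hspa4l with median centring and with probes detected on all 6 arrays. The cause of these shifts was not tested. Of all genes tested, 393 were detected on none of the 6 arrays, 5 of them called.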
